A study of Rattus norvegicus with 2 samples.

Results

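The 9 genes described here are transcription factors and gene products that mark Müller glia, the main glial cell of the retina, or that are retained in it from the retinal progenitor. They are *Sox2*, *Sox8*, *Sox9*, *Lhx2*, *Rax*, *Six3*, *Dbi*, *Gpr37* and *Crym*, taken by symbol from an expression table of 32662 rat genes, and all 9 were found in it. Retinas came from female Long-Evans rats aged 2 months. In CTRL the eye had a sham procedure, and in IR12 the retina was taken 12 hours after reperfusion that followed ischemia. Each condition is 1 RNA-seq library of whole retina, rRNA-depleted before sequencing, so no difference has a replicate check and no p-value is given. Levels are FPKM, read numbers adjusted for transcript length and sequencing depth. Differences are log2 ratios of (FPKM + 1), IR12 over CTRL. This scale understates the change of low genes, so the plain ratio of FPKM is given where it helps.

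Müller glia span the retina, recycle glutamate, buffer potassium and water, and respond to injury by gliosis. They are among the last cell types made by retinal progenitors and keep several progenitor transcription factors. SOX proteins bind DNA through an HMG box. Sox2 maintains retinal progenitors, and Sox9 is needed to form Müller glia. Lhx2, Rax and Six3 are homeobox proteins of the early eye field. In fish, Müller glia re-enter the cell cycle after injury and replace neurons, whereas in mammals gliosis is the usual outcome. Several of the 9 genes are not restricted to Müller glia: Sox2 is also made in some amacrine cells, Sox9 in astrocytes and Six3 in inner retinal neurons. In a whole-retina library, fewer cells of a type and less RNA per cell cannot be told apart.

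Promoter sequence was matched by symbol for 6 of the 9 genes, *Sox2*, *Lhx2*, *Rax*, *Six3*, *Dbi* and *Gpr37* (RefSeq, build GRCr8). For 3 of them the 250 bases before the transcript start are shown, 5′ to 3′ on the gene's strand: *Gpr37*, with the largest difference between libraries; *Sox2*, with the middle one; and *Six3*, with the lowest level. Capitals mark the CCAAT box, searched on both strands as CCAAT or ATTGG.

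Gpr37 (chr4:55126421-55126670, minus strand): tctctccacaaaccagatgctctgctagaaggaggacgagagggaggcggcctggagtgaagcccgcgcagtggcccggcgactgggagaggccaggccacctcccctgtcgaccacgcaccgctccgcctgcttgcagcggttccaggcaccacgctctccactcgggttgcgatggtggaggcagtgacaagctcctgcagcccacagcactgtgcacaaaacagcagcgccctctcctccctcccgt

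Sox2 (chr2:119464881-119465130, plus strand): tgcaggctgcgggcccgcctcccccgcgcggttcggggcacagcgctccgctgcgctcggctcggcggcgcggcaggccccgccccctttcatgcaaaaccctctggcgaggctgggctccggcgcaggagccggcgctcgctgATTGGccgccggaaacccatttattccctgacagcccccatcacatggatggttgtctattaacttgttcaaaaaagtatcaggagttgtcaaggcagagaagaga

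Six3 (chr6:14796257-14796506, minus strand): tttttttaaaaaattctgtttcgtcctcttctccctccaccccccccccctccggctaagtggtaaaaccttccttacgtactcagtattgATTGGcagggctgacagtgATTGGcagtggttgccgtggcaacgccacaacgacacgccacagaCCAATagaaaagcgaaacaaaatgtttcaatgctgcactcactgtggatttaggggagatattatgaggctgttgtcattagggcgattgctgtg

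The *Six3* window holds 3 CCAAT boxes, that of *Sox2* holds 1 and that of *Gpr37* none. *Dbi* also has 1, so 3 of the 6 genes have the motif, which is found in 34.0% of 33469 rat promoter windows of the same length. The core letters ACAAT or ATTGT that SOX proteins bind occur in 30.0% of all windows and in 0 of these 6. The homeobox core TAATTA occurs in 4.86% of all windows and also in 0 of the 6. The SOX core and the CCAAT box share all but 1 letter, and no position can match both. A match is a description of letters, and no match says only that these letters are not in this window. GC content was 66.0% in the *Gpr37* window, 64.4% in that of *Sox2* and 48.0% in that of *Six3*, against a median of 51.2% over all windows.

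*Gpr37* and *Sox9* were the members lower in IR12 by more than 2-fold. On log2(FPKM + 1) *Sox9* was past 2-fold only narrowly, at -1.03, and not when both libraries were scaled to equal FPKM sums (-0.62). Without the pseudocount *Sox9* was lower by 2.77 times in FPKM as deposited. *Dbi*, *Lhx2* and *Sox2* were lower by 1.70 to 1.78 times in FPKM. With equal sums their log2 ratios were nearer to 0, at -0.14, -0.17 and -0.11. *Six3*, *Crym*, *Rax* and *Sox8* had log2 ratios between -0.07 and 0.34, and the sign of *Six3* and *Crym* turned with equal sums. The 2 members past 2-fold lower compare with 6.12% of the 13599 genes that had FPKM of at least 1 in at least 1 library, and no member was past 2-fold higher, against 6.56% of those genes. The median log2 ratio of the 9 members was -0.69, and that of the 13599 genes was 0.02. *Six3* was under FPKM 1 in both libraries, so 8 of the 9 members are among these genes.

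The levels of the members covered more than 2 orders of magnitude, and FPKM is per length, so they can be ordered. In CTRL the order was *Dbi*, *Crym*, *Gpr37*, *Sox2*, *Lhx2*, *Sox9*, *Sox8*, *Rax* and *Six3*. In IR12 the order was the same for the first 5, and *Sox9* dropped from rank 6 to rank 8, below *Sox8* and *Rax*. *Dbi*, *Crym* and *Gpr37* made up 91.1% of the summed FPKM of the members in CTRL. The 6 transcription factors together had 34.1 FPKM in CTRL and 23.4 in IR12 as deposited. Scaling to equal FPKM sums raises each IR12 value by 0.65 on the log2 scale without a pseudocount, which turns the direction of this sum. With 1 library of each condition, the order of close neighbours such as *Sox9* and *Sox8* in CTRL, or *Dbi* and *Crym* in IR12, has no spread to be read against.

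**Figure D1:**
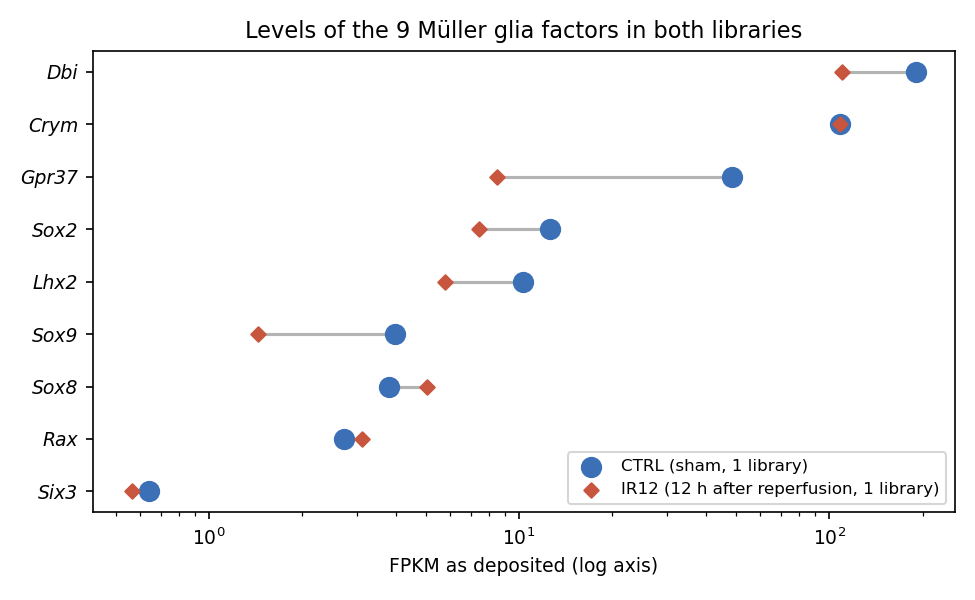
FPKM of each member on a log axis, with a circle for CTRL and a diamond for IR12 (1 library each) joined by a line. The longest lines are those of *Gpr37* (48.8 to 8.48) and *Sox9* (3.99 to 1.44), and the symbols of *Crym* lie on each other at 108.

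Among the SOX factors, *Sox9* (ENSRNOG00000002607, rn6 chromosome 10, 101288489 to 101293379), which promotes glial fate, stood at an FPKM of 3.99 in CTRL against 1.44 in IR12. IR12 held 0.361 times the CTRL level (log2 ratio -1.03). *Sox2* (ENSRNOG00000012199, chromosome 2, 121165137 to 121167545), a factor of stem and progenitor cells, had 12.6 in CTRL against 7.42 in IR12 (log2 ratio -0.69). *Sox8* (ENSRNOG00000018841, chromosome 10, 14932348 to 14937336), a close relative of Sox9, went the other way. Its FPKM was 3.80 in CTRL against 5.06 in IR12 (log2 ratio 0.34). The relation between the relatives therefore differed between the libraries, and this comparison needs no scaling. *Sox9* stood at 1.05 times the FPKM of *Sox8* in CTRL and at 0.285 times in IR12, and *Sox2* stood at 3.31 times and 1.47 times the FPKM of *Sox8*.

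The precision of the low values can be read in part from the table. The smallest FPKM values of olfactory receptor genes, which have 1 coding exon, moved in steps of single reads, a check chosen after the data were seen. The values of 42 such genes in CTRL and 117 in IR12 were whole reads within 0.01 of a read. The steps give 15.4 M reads in CTRL and 26.3 M in IR12 as the totals that the FPKM were divided by. The study's methods give several times more sequenced reads, and the cause of this gap was not tested. For *Sox2*, a gene of 1 exon, these steps give about 428 reads in CTRL and 431 in IR12, with 1 read worth 0.0294 and 0.0172 FPKM. The exact Poisson 95% interval was 11.4 to 13.8 FPKM in CTRL and 6.74 to 8.16 in IR12, and the intervals do not overlap as deposited. With both libraries scaled to the same FPKM sum, the IR12 interval is 10.6 to 12.8 and overlaps that of CTRL. These intervals cover counting error only, since 1 library per condition gives no spread between animals or libraries. Even the counting error may be understated, because PCR copies of a molecule could not be told from separate molecules. For genes with introns the locus is longer than the transcript, so the steps give an upper limit of reads and the narrowest interval possible. *Six3* had at most 31 reads in CTRL and 47 in IR12, and its intervals of 0.436 to 0.912 and 0.419 to 0.758 FPKM overlap. Those of *Rax* also overlap, 2.32 to 3.22 against 2.76 to 3.50. With equal sums the intervals of *Six3* still overlap, so its difference was not detectable at this depth on either scale. The narrowest IR12 interval of *Rax* is then 4.33 to 5.48, above the narrowest of CTRL. For *Sox9* the narrowest intervals, 3.55 to 4.49 and 1.24 to 1.67, lie apart, as do those of *Sox8*, 3.36 to 4.27 and 4.67 to 5.47. The full intervals of these genes are wider by an unknown amount, so whether those of *Sox9* and *Sox8*, or those of *Rax* with equal sums, overlap is not known.

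Among the homeobox factors, *Lhx2* (ENSRNOG00000010551, chromosome 3, 22640545 to 22658446), a LIM-homeobox protein of eye formation and Müller glia development, stood at an FPKM of 10.3 in CTRL against 5.79 in IR12. Its log2 ratio of -0.74 was close to the value of *Sox2*, and *Sox2* stood at 1.22 times the FPKM of *Lhx2* in CTRL and at 1.28 times in IR12. *Rax* (ENSRNOG00000016944, chromosome 18, 61638352 to 61642056), the retinal homeobox factor without which no eye forms, had 2.73 in CTRL against 3.11 in IR12 (log2 ratio 0.14). *Six3* (ENSRNOG00000057031, chromosome 6, 8886591 to 8889925), a factor of forebrain and eye patterning, had 0.643 in CTRL against 0.565 in IR12 (log2 ratio -0.07). *Lhx2* stood at 3.77 times the FPKM of *Rax* in CTRL and at 1.86 times in IR12.

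Among the gene products, *Gpr37* (ENSRNOG00000002524, chromosome 4, 51822153 to 51844331), an orphan G protein-coupled receptor of glia, stood at an FPKM of 48.8 in CTRL against 8.48 in IR12. It was 5.75 times as high in CTRL (log2 ratio -2.39). A lower ratio was found for 196 of the 13599 genes, or 1.44%. Its relative *Gpr37l1* was at 0.870 in CTRL and 0.0849 in IR12, both under FPKM 1. *Dbi* (ENSRNOG00000046889), the acyl-CoA binding protein whose fragments also act on GABA-A receptors, had 189.9 in CTRL against 110.1 in IR12 (log2 ratio -0.78). *Dbi* shares its listed locus (chromosome 13, 36117119 to 36221225) with *LOC288978*, which was at 4.72 and 4.63, and how reads in that locus were divided between them is not given in the sources used here. *Crym* (ENSRNOG00000061215, chromosome 1, 189944895 to 189960073), a thyroid hormone-binding protein, had an FPKM of 108 in both libraries. Its log2 ratio of -0.00093 was the nearest to 0 among the members. *Gpr37* stood at 0.451 times the FPKM of *Crym* in CTRL and at 0.0784 times in IR12.

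**Figure D2:**
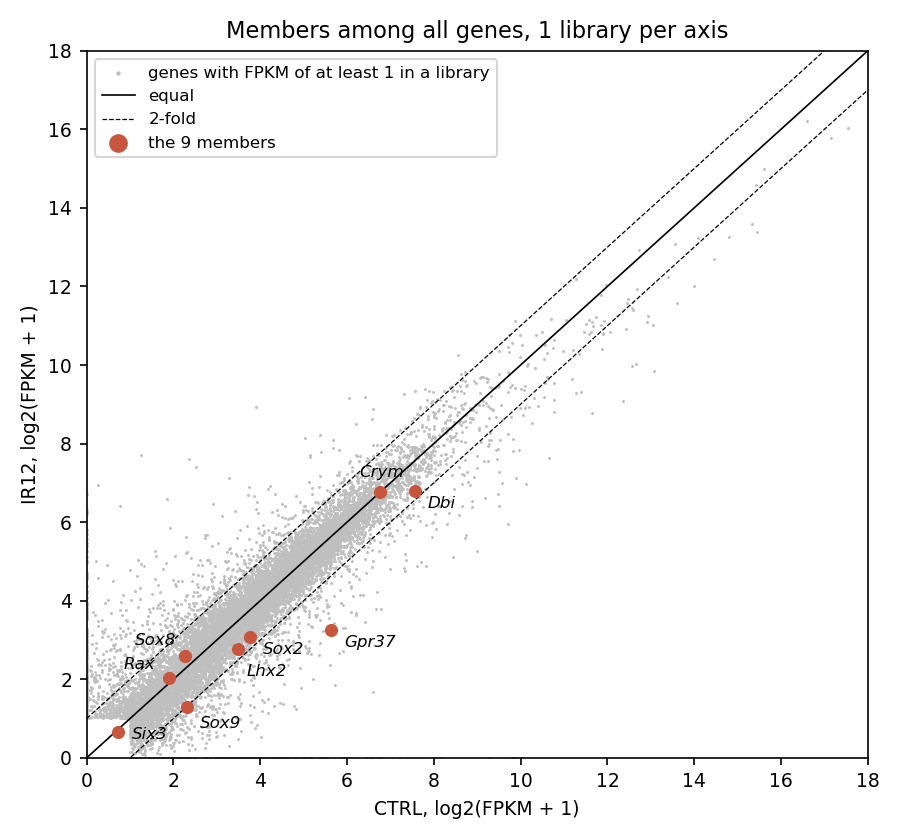
Each grey point is 1 of 13599 genes, with log2(FPKM + 1) in CTRL on the x axis and in IR12 on the y axis, 1 library each. The dashed lines mark 2-fold. *Gpr37* lies far below the lower line and *Sox9* just below it, while *Crym*, *Rax* and *Six3* lie by the line of equal levels.

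The genes nearest to a member in both libraries were found by the distance in log2(FPKM + 1) over the 2 libraries, which with 2 points describes level and ratio only. For *Gpr37*, the 3 nearest included *Dapl1*, with 50.7 in CTRL and 9.81 in IR12, and *Rrh*, with 59.1 and 8.84. *Rrh* encodes peropsin, a protein of the pigment epithelium. For *Sox8*, the member with the largest positive ratio, *Poll*, with 3.81 and 5.08, and *Zfp574*, with 3.77 and 5.03, were the nearest.

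The direction of the small differences depends on the scale. All deposited FPKM add up to 1402321 for CTRL but 895199.9 for IR12, and small RNA genes account for 68.0% and 46.3% of these totals. Scaling both libraries to the same sum moved the median log2 ratio of the 13599 genes from 0.02 to 0.61. Leaving small RNAs out of the sums gave a median of -0.07 instead, with no change of sign among the members. On that scale 939 genes (6.90%) were past 2-fold lower and 789 (5.80%) past 2-fold higher. With the full sums *Sox9*, *Sox2*, *Lhx2*, *Dbi* and *Gpr37* were still lower, at -0.62, -0.11, -0.17, -0.14 and -1.80, while *Crym* and *Six3* turned to 0.64 and 0.20. Relative to the median of all genes, the median of the members was -0.72 with the full sums and -0.71 after centring on the median gene. A common scale cancels in this difference apart from the pseudocount, so the likeness of these values is by construction and checks nothing. Past 2-fold, 832 genes were lower and 892 higher as deposited, and 473 lower and 3051 higher with equal sums. *Gapdh*, a glycolytic enzyme often used as a reference, was at 716 in CTRL and 690.1 in IR12, but *Actb* was at 259.9 and 537. Relative to *Gapdh*, a scale added after the data were seen, *Gpr37* was at -2.35 and *Sox2* at -0.64, and *Crym* turned to 0.05.

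The median of other genes of Müller glia was lower than that of the members. A list of 20 genes of glutamate, water, ion, retinoid and lipid handling and other products abundant in these cells had 19 with FPKM of at least 1, of which 12 were past 2-fold lower and 1 was past 2-fold higher, with a median log2 ratio of -1.29. *Kcnj10*, 1 of the 12, reached FPKM 1 in CTRL alone. The shares of all 13599 genes were 6.12% and 6.56%. With equal sums 9 were past 2-fold lower and 3 past 2-fold higher, beside 3.48% and 22.4% of all genes, and the median was -0.66. *Aqp4*, the water channel of glial endfeet, was at 48.0 in CTRL and 4.16 in IR12. *Glul*, which makes glutamine from glutamate, was at 754 and 126. *Rlbp1*, the retinal-binding protein of the visual cycle, was at 126 and 26.8. The log2 ratios of these 3 genes, from -3.25 to -2.19, lie on both sides of that of *Gpr37* and below those of *Sox2* and *Lhx2*. Other genes of the list, *Acsl3*, *Cd9* and *Prdx6*, lie above *Sox2* and *Lhx2*, at -0.53, -0.39 and 0.45. The exception past 2-fold was *Clu*, a secreted chaperone, at 223 and 673, and the filament gene *Vim* was at 121 and 221. When each member was set against the median over all 20 genes of this list, -1.28, *Gpr37* was still lower, at -1.11. The other 8 members were above it, from 0.25 for *Sox9* to 1.62 for *Sox8*.

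**Figure D3:**
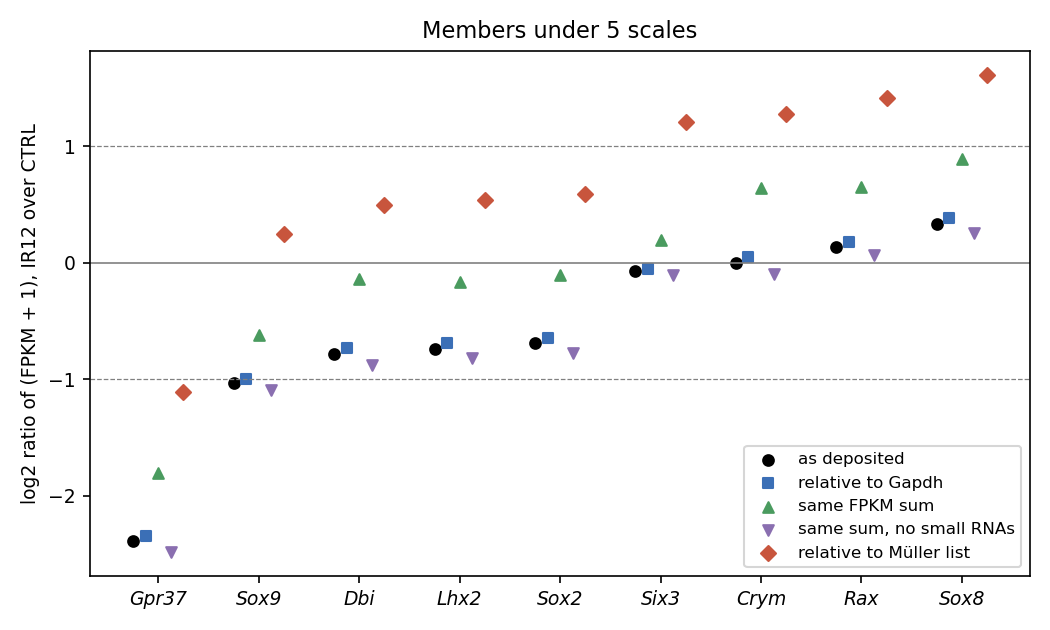
Log2 ratio of each member (IR12 over CTRL, 1 library each) under 5 scales, with dashed lines at 2-fold. *Gpr37* is below -1 on every scale shown, and relative to the Müller glia list the other members lie above 0.

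Of 15 factors of gliogenesis and glial maintenance found, 14 had FPKM of at least 1, with 9 lower and 5 higher beside 48.2% of the 13599 genes lower, and 4 of these were past 2-fold lower and 0 past 2-fold higher, with a median of -0.52. The shares of the 13599 genes were 6.12% and 6.56%. With equal sums 7 of the 14 were lower and 7 higher, 2 were past 2-fold lower and 1 past 2-fold higher, beside 3.48% and 22.4% of the 13599 genes, and the median was 0.07. *Ptn*, a secreted growth factor, was at 100.1 in CTRL and 12.8 in IR12. *Hes1*, a Notch target that maintains progenitors, was at 17.1 and 4.10. *Id3* and *Id2*, inhibitors of bHLH factors, were at 13.6 and 4.07 and at 31.6 and 15.1. *Nfia*, *Nfib* and *Nfix*, the nuclear factor I genes that act in late progenitors and glia, had log2 ratios of -0.33, -0.38 and -0.81. *Notch1* and *Rbpj*, the receptor and its nuclear partner, had log2 ratios of 0.11 and 0.32.

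Of the 19 eye-field and progenitor genes found besides the members, 12 had FPKM of at least 1. Their median was -0.04, or 0.59 with equal sums. With equal sums 0 were past 2-fold lower and 4 past 2-fold higher, beside 3.48% and 22.4% of the 13599 genes. As deposited 0 were past 2-fold lower and 3 past 2-fold higher, beside 6.12% and 6.56% of the 13599 genes. The 3 were *Ccnd1*, the G1 cyclin, at 3.90 in CTRL and 36.3 in IR12, *Nes*, the filament nestin of progenitors and reactive glia, at 0.152 and 5.98, and *Hmga2*, a chromatin protein, listed at 0 in CTRL and at 1.89 in IR12. *Nes* and *Hmga2* reached FPKM 1 in IR12 alone, so they could enter this count only as higher. *Pax6*, which is also abundant in amacrine cells, was at 165 and 105, and *Six6* was at 5.59 and 3.12. *Mki67*, a marker of dividing cells, was at 0.402 and 0.118. *Otx2*, *Neurog2* and *Atoh7* are listed at 0 in both libraries. *Otx2* is made by photoreceptors and bipolar cells, and all 37 mitochondrial genes are also at 0, so such an entry can be a missing estimate.

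Of 12 other SOX genes found, 4 had FPKM of at least 1. Of these, 1 was past 2-fold higher and 0 lower, beside 6.56% and 6.12% of the 13599 genes. *Sox7*, an endothelial factor, was at 0.0632 in CTRL and 3.21 in IR12, past 2-fold higher, and reached FPKM 1 in IR12 alone. *Sox6*, at 6.70 and 3.63, had a log2 ratio of -0.73, close to those of *Lhx2* and *Sox2*. *Sox5* and *Sox13* had log2 ratios of -0.22 and 0.37. *Sox10*, the third relative of Sox8 and Sox9 and a marker of oligodendrocytes, was listed at 0 in CTRL and at 0.0672 in IR12.

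**Figure D4:**
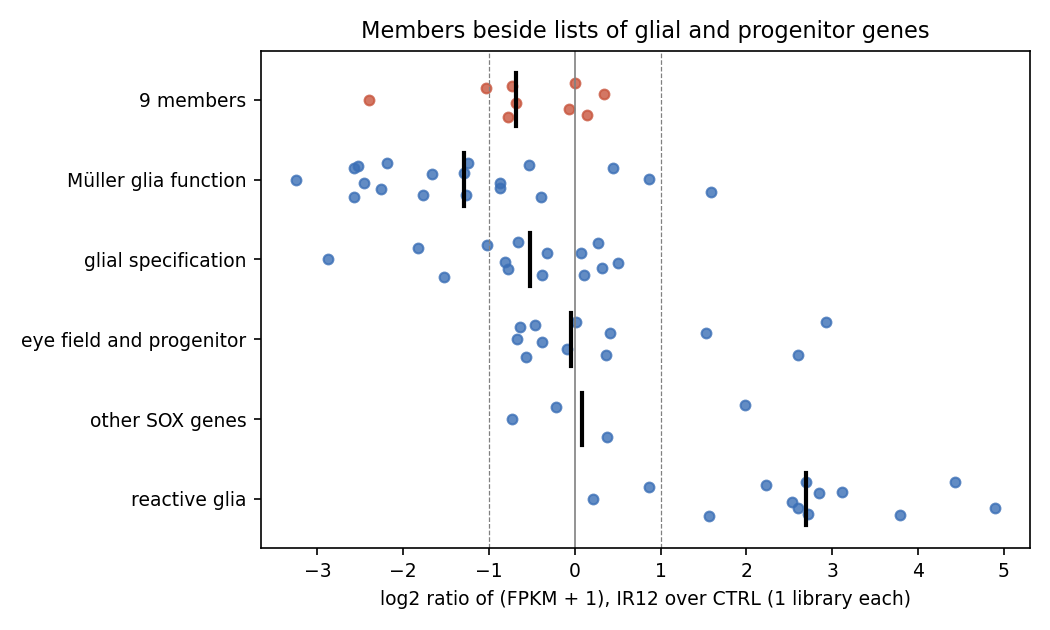
Log2 ratios (IR12 over CTRL, 1 library each) of the 9 members and, for 5 lists, of genes at FPKM 1 or more in a library, each point 1 gene and each bar the median. The median is -0.69 for the members, -1.29 for Müller glia function and 2.69 for reactive glia.

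Of 14 reactive glia genes found, 13 had FPKM of at least 1, with a median of 2.69, or 3.29 with equal sums. With equal sums 12 were past 2-fold higher and 0 lower, beside 22.4% and 3.48% of the 13599 genes. As deposited 11 were past 2-fold higher and 0 lower, beside 6.56% and 6.12% of the 13599 genes. Of the 11, 7 reached FPKM 1 in IR12 alone and could be counted only as higher, and 4 were at FPKM 1 or more in both libraries. *Gfap*, the filament of astrocytes and reactive Müller glia, was at 2.95 in CTRL and 21.9 in IR12, and *Stat3*, a transducer of cytokine signals, at 17.7 and 120.2. *Vim* and *Nes* are also on the lists above.

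Markers of other cells moved between the libraries as well. Of all 13599 genes 48.2% were lower as deposited, 6.12% past 2-fold lower and 6.56% past 2-fold higher. The summed FPKM given here are as deposited, and equal sums raise each IR12 sum by 0.65 on the log2 scale. The list labelled lens and ciliary body had 8 of 8 genes lower in IR12 and 7 of 8 past 2-fold. Its summed FPKM was 2972 in CTRL and 359 in IR12. *Cryba1* was the most abundant at 1614 and 196, and none of the 8 was at 0 in either library. Of the 7, 1, *Gja3*, reached FPKM 1 in CTRL alone. The gene not past 2-fold was *Opcml*, at 10.7 in CTRL and 5.23 in IR12, and whether it marks these tissues was not tested. With equal sums 8 of 8 were still lower and 6 were past 2-fold lower, beside 3.48% of all genes. The amacrine list had 10 of 10 genes lower, with 0 past 2-fold, a median of -0.69 and summed FPKM of 422 and 274. With equal sums 5 of 10 were lower. Its most abundant gene was *Pax6*. The astrocyte list, which includes *Sox9*, had 4 genes with FPKM of at least 1. Of these 3 were past 2-fold lower and 1, *Gfap*, past 2-fold higher. With equal sums 2 were past 2-fold lower and 1 past 2-fold higher, and *Sox9* was at -0.62. *Gja1* was the most abundant, at 40.7 and 6.63. *S100b* was at 25.8 and 5.81, *Pax2* was listed at 0 in CTRL and at 0.0317 in IR12, and *Aldh1l1* was under 0.1 in both libraries. The summed FPKM of the astrocyte list was 73.5 and 35.8. The oligodendrocyte list, a cell type that expresses *Gpr37*, had 0 of 2 genes past 2-fold, with summed FPKM of 12.1 and 12.0. *Olig1* was at 0 in both libraries. The median of the 2 genes was -0.02, or 0.53 with equal sums. The rod list, which checks the labelled tissue, had 0 of 10 genes past 2-fold, a median of -0.02 and summed FPKM of 17873 and 20528. With equal sums its median was 0.63, with 9 of 10 genes higher and 1 past 2-fold higher. The part of these cells in the differences of the members was not tested.

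**Figure D5:**
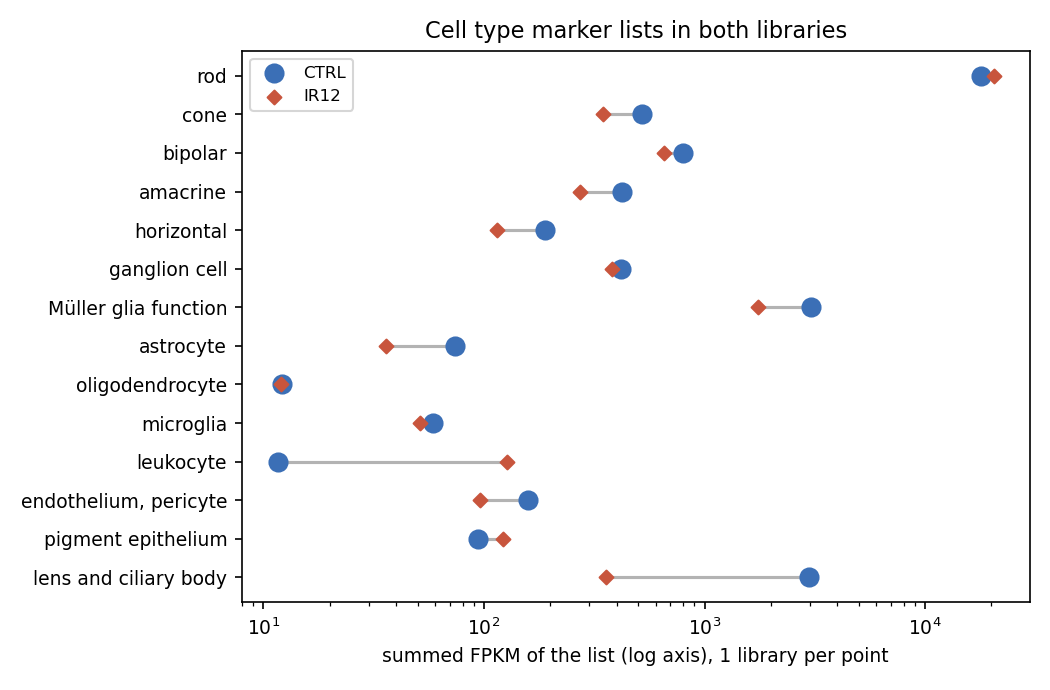
Summed FPKM of each cell type list on a log axis, with a circle for CTRL and a diamond for IR12 (1 library each). The lens list differs most toward CTRL (2972 against 359) and the leukocyte list toward IR12 (11.6 against 127).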

How the data were processed

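Total RNA of rat retina, 1 library per condition, was rRNA-depleted and sequenced. The authors deposited FPKM per gene on rn6 with Ensembl identifiers. The submitters' processing notes name STAR 2.5.2b and Cuffdiff 2.2.0, with no roles given. Locus starts are 0-based in the table and 1 was added. FPKM was used as deposited, with a pseudocount of 1 and no test. Genes with FPKM of at least 1 in at least 1 library (13599) were the background, and 2-fold on log2(FPKM + 1) counted as called. Where a symbol had several rows, the row with the highest sum was used. The members and lists were chosen with earlier results of these data known. Named are the members, genes of the lists, genes that share a locus with a member and the nearest genes by level.

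Depth was read from olfactory receptor genes of 900 to 1000 bp, where the inverse of the lowest repeated FPKM is linear in length (6 lengths in CTRL, 15 in IR12). The slopes give 15.4 M and 26.3 M reads in the FPKM denominators. Log2 ratios, calls and the depth step were tested on simulated data. Alternatives were other pseudocounts, scales and minima. Computation used numpy 2.4.6 and scipy 1.17.1 with pandas 2.3.3 under Python 3.11.15, and plots were drawn with matplotlib 3.10.9.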

Additional observations from a re-analysis of the deposited data

How the results depend on the processing

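No paired analysis was possible because each condition has 1 library. For the same reason no replicate could be left out, and animal, library and injury cannot be told apart. Of 90 alternative values, 73 stayed within 1.5 times of the reported ratio or count, whatever their sign. This count overstates how stable the values are. Dropping the minimum FPKM keeps all 9 members, so those values could not differ. On each scale and pseudocount the median of the members is the value of *Sox2*, so the same value is counted again. The move of this median from -0.69 to -0.11 with equal sums still counted as within 1.5 times. Setting the members against the median of the Müller glia function list subtracts a negative value from each gene by construction. There 6 members turned from lower to higher, *Sox9* (0.25) and *Sox2*, *Lhx2*, *Six3*, *Dbi* and *Crym*, and the median of the members became 0.59. On that scale 1 member was past 2-fold lower and 4 were past 2-fold higher. Of the 8 members at FPKM 1 or more these were 1 and 3, beside 1.58% and 72.6% of the 13599 genes. *Six3* and *Crym* also turned with equal FPKM sums, and *Crym* relative to *Gapdh*. The number past 2-fold lower was also 1 with equal FPKM sums (3.48% of the 13599 genes) and with a minimum FPKM of 5 (6.07% of 10281 genes), which keeps 6 members and leaves out *Sox9*. Equal sums gave a median of -0.11, and the other scales and pseudocounts gave medians from -0.78 to -0.64. The ratio without a pseudocount and the *Gapdh* scale were added after the data were seen.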

Other observations

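The other cell type lists give the surroundings of the members, as values with no explanation. Of all 13599 genes 48.2% were lower as deposited, 6.12% past 2-fold lower and 6.56% past 2-fold higher. With equal sums 3.48% were past 2-fold lower and 22.4% past 2-fold higher. The summed FPKM are as deposited, and equal sums raise each IR12 sum by 0.65 on the log2 scale. Summed FPKM of the cone list was 521 in CTRL and 347 in IR12, with 8 of 8 genes lower and 1 past 2-fold, but 4 of 8 lower when both libraries were scaled to equal FPKM sums. The bipolar list had 800.3 and 654, with 0 of 9 past 2-fold and a median log2 ratio of -0.25, or 0.40 with equal sums. The horizontal cell list had 189 and 115, and the median log2 ratio of the 4 genes at FPKM 1 or more was -0.66, or -0.08 with equal sums. The ganglion cell list had 417 and 380.4, with a median of -0.16, or 0.47 with equal sums. Past 2-fold as deposited were *Gap43*, a gene of axon growth, at 20.1 and 71.4, and *Pou4f2*, a ganglion cell factor, at 3.41 and 1.06.

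The microglia list had summed FPKM of 58.4 in CTRL and 51.3 in IR12, with 0 of 7 genes past 2-fold and a median of -0.11, or 0.37 with equal sums, while the leukocyte list had 11.6 and 127, with 6 of 7 past 2-fold higher, 5 of them at FPKM 1 or more in IR12 alone. The endothelial and pericyte list had 159 and 95.7, with a median of -0.41, or 0.12 with equal sums. The pigment epithelium list had 94.2 and 122, with 4 of 6 genes higher and a median of 0.16, or 0.65 with equal sums. As deposited 1 of the 6 was past 2-fold lower and 0 past 2-fold higher, and with equal sums 0 and 2. Of the 8 reference genes, *Hprt1* is listed at 0 in both libraries, and 2 of the other 7, *Actb* and *B2m*, were past 2-fold higher.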
